A study of Mus musculus with 2 samples.

Results

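The 10 genes S100a4, S100a6, S100a10, S100a11, Anxa1, Anxa2, Ahnak, Lgals1, Lgals3 and Vim were followed across splenic T cell types. The cells came from mice in which Prmt5 is targeted in T cells and from control mice. They are 10 of the 30905 genes listed in the data and were found by an exact match of the gene symbol. They had been proposed with results of the same cells in view, for being higher in the knockout, so the differences between the groups given here describe the members and carry no test. The group was also named as effector genes, so its distribution over cell types is not independent of that choice and is likewise a description. The members and their gene families were kept out of the clustering that defined the types.

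CD3+ cells were sorted by flow cytometry from spleens of C57BL/6 mice and profiled by droplet single-cell RNA sequencing with a 3′ chemistry. The CKO group carries CD4-Cre and PRMT5fl/fl, so that Prmt5, which encodes an arginine methyltransferase, is removed from cells that have passed through CD4 expression, CD8 T cells included. The control group is labelled WT in its title, but its genotype field reads the same as that of the CKO group, and the groups were therefore taken from the titles. Every group was sequenced as a single library. The design names 3 mice for either group, with no record here of which cell came from which mouse, so a difference between the groups cannot be told apart from a difference between the libraries. No treatment and no age were given.

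S100 proteins are small calcium-binding proteins, and annexins bind membrane phospholipids in the presence of calcium. S100A10 forms a complex with annexin A2 under the plasma membrane, and AHNAK, a giant scaffold protein, binds that complex, while S100A11 pairs with annexin A1. Galectins bind sugars on cell-surface glycoproteins, and vimentin is the intermediate filament of lymphocytes. In T cells, transcripts of this group are known to be more abundant in effector and memory cells than in naive cells.

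In the CKO library 7660 of 7896 barcodes and in the control library 6712 of 7407 passed the filters, with a median of 6045 and 6282 unique molecular identifiers (UMIs) per cell. The libraries hold 52387620 and 48273424 UMIs, and 7 of the kept barcodes occur in both. Prmt5 itself was counted at 4.87 CPM (UMIs of the gene scaled to a total of 1000000 UMIs) in CKO T cells and 15.03 CPM in control T cells, from 250 and 702 UMIs. In effector-like CD8 cells it stood at 9.40 and 29.1 CPM, from 11 and 10 UMIs. In the Fcer1g cluster (9.52 and 9.14 CPM, 15 and 9 UMIs) Prmt5 was not lower in the CKO library. In NKT-like cells it stood at 22.7 and 14.7 CPM, from 2 and 13 UMIs. In gamma-delta-like cells it stood at 9.13 and 12.5 CPM, from 7 and 2 UMIs. The counts in NKT-like and gamma-delta-like cells are too few to show a loss or its absence there. T cells numbered 7565 and 6619, beside 72 and 67 B-like and 23 and 26 myeloid-like cells. Throughout, levels are summed UMIs of a type as CPM, the CKO value stands before the control value, and brackets give exact 95% intervals that cover counting error only.

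S100a4 and S100a6 encode calcium sensors that act on myosin and other cytoskeletal partners, and they lie close together on mouse chromosome 3, with S100a5, which had 0 UMIs in both libraries, between them. In the GENCODE vM21 annotation of the mm10 build S100a4 (ENSMUSG00000001020) runs from 90603771 to 90606045 and S100a6 (ENSMUSG00000001025) from 90612882 to 90624181, with starts 9.11 kb apart. S100a11 (93520488 to 93526287) and S100a10 (93555080 to 93564643) lie on the same chromosome, and 6 of its 13 S100a genes had at least 100 UMIs. The exons of S100a4 overlap those of Gm42674 on the same strand, so a part of their reads may be shared. Anxa2 overlaps Gm16144, which lies on the opposite strand. The S100a4 and S100a6 promoters are shown because this pair had the closest profiles of all member pairs, and that of Ahnak because its level parted from theirs in effector-like cells. Each run is the 250 bases before the RefSeq start on GRCm38.p6, plus strand, at chr3:90603520-90603769 for S100a4, chr3:90612644-90612893 for S100a6 and chr19:8989034-8989283 for Ahnak, with capitals marking TATAAA, the CCAAT box read on the other strand, and the GC box GGGCGG read on the other strand.

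S100a4: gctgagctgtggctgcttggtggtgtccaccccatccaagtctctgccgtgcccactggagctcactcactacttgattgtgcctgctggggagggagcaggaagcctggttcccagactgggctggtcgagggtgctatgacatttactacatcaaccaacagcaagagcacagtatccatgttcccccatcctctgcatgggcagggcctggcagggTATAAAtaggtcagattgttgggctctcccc
S100a6: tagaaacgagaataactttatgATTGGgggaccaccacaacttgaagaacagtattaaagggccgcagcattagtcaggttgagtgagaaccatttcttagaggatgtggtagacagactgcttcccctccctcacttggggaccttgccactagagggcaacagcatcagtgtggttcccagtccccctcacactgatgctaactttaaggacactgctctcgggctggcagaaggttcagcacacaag
Ahnak: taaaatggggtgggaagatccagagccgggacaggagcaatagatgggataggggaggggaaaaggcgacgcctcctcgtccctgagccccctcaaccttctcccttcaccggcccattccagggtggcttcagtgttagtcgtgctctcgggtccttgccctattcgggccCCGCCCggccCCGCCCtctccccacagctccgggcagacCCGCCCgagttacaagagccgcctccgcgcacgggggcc

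Of the 10 members 8 have a promoter entry, and none was found for S100a10 and Lgals1. TATAAA occurs on either strand in 4 of the 8 (Vim, S100a4, Anxa2 and Anxa1), against 12.4% of 32851 promoters of the same length. GGGCGG occurs in 4 (S100a11, Anxa2, Lgals3 and Ahnak) against 32.7%, CCAAT in 3 (Vim, S100a6 and Lgals3) against 33.8%, and the AP-1 motif TGANTCA in 2 (S100a11 and Anxa2) against 6.75%. None of these letter strings was shared by all 8, and a match describes the sequence only.

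The other members lie on further chromosomes. Anxa2 lies on chromosome 9 (69453620 to 69491795), Anxa1 on the minus strand of chromosome 19 (20373428 to 20390944), and Ahnak on the same chromosome (8989284 to 9076914). Lgals1 lies on chromosome 15 (78926725 to 78930465), Lgals3 on chromosome 14 (47367751 to 47386160) and Vim on chromosome 2 (13573927 to 13582826). All levels are counts from 3′ ends and were not set per gene length, so they are compared within a gene and not between genes.

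The members differed in how far their levels in resting cells lay below those in effector-like cells, from the most for S100a4, S100a6 and Lgals3 to the least for Vim. S100a4 stood at 7.12 and 3.64 CPM in naive-like CD8 cells and at 1267 and 737 CPM in effector-like CD8 cells. S100a6 stood at 19.7 and 6.20 CPM in naive-like CD8 cells and at 2281 and 1171 CPM in effector-like ones. Lgals3, a galectin that also acts inside cells, had 20 and 3 UMIs in all naive-like CD8 cells, but 338 and 111 CPM in effector-like cells. The effector-like level was 178 and 202 times the naive-like level for S100a4, 116 and 189 times for S100a6, and 176 and 476 times for Lgals3, the last from only 3 naive-like UMIs in the control library. Anxa2, at 17.6 and 26.4 times, Lgals1, at 12.4 and 20.5 times, and Ahnak, at 10.4 and 14.97 times, lay between. Vim, by comparison, stood at 281 and 230 CPM in naive-like CD8 cells and at 765 and 606 CPM in effector-like cells, which is 2.72 and 2.63 times as high. S100a10 went from 556 and 439 CPM to 2757 and 2002 CPM, and S100a11 from 172 and 151 CPM to 759 and 624 CPM. These are 4.96 and 4.56 times for S100a10 and 4.42 and 4.13 times for S100a11. Every member with UMIs in naive-like CD8 cells thus stood higher in effector-like CD8 cells in both libraries, by the least for Vim, S100a11 and S100a10.

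The summed level of the 10 members ordered the types in a similar way in both libraries. It was highest in gamma-delta-like cells, at 17019 and 8901 CPM, memory-like CD4 cells, at 13661 and 5033 CPM, and effector-like CD8 cells, at 11590 and 7953 CPM. Proliferating-like cells held 8207 and 5390 CPM, Treg-like cells 4825 and 3087 CPM, and the cluster led by Fcer1g 4207 and 3992 CPM. Naive-like CD8 cells had 1312 and 969 CPM, naive-like CD4 cells 754 and 670 CPM, and the cluster with Egr2 751 and 622 CPM. In the control library memory-like CD4 cells stood below proliferating-like cells, the reverse of their order in the CKO library. This order is of types taken whole. A Treg-like sub-cluster of 41 and 48 cells stood above gamma-delta-like cells in both libraries, at 21806 and 11084 CPM. A memory-like CD4 sub-cluster of 51 and 13 cells stood at 16334 and 14301 CPM, above them in the control library.

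**Figure D1:**
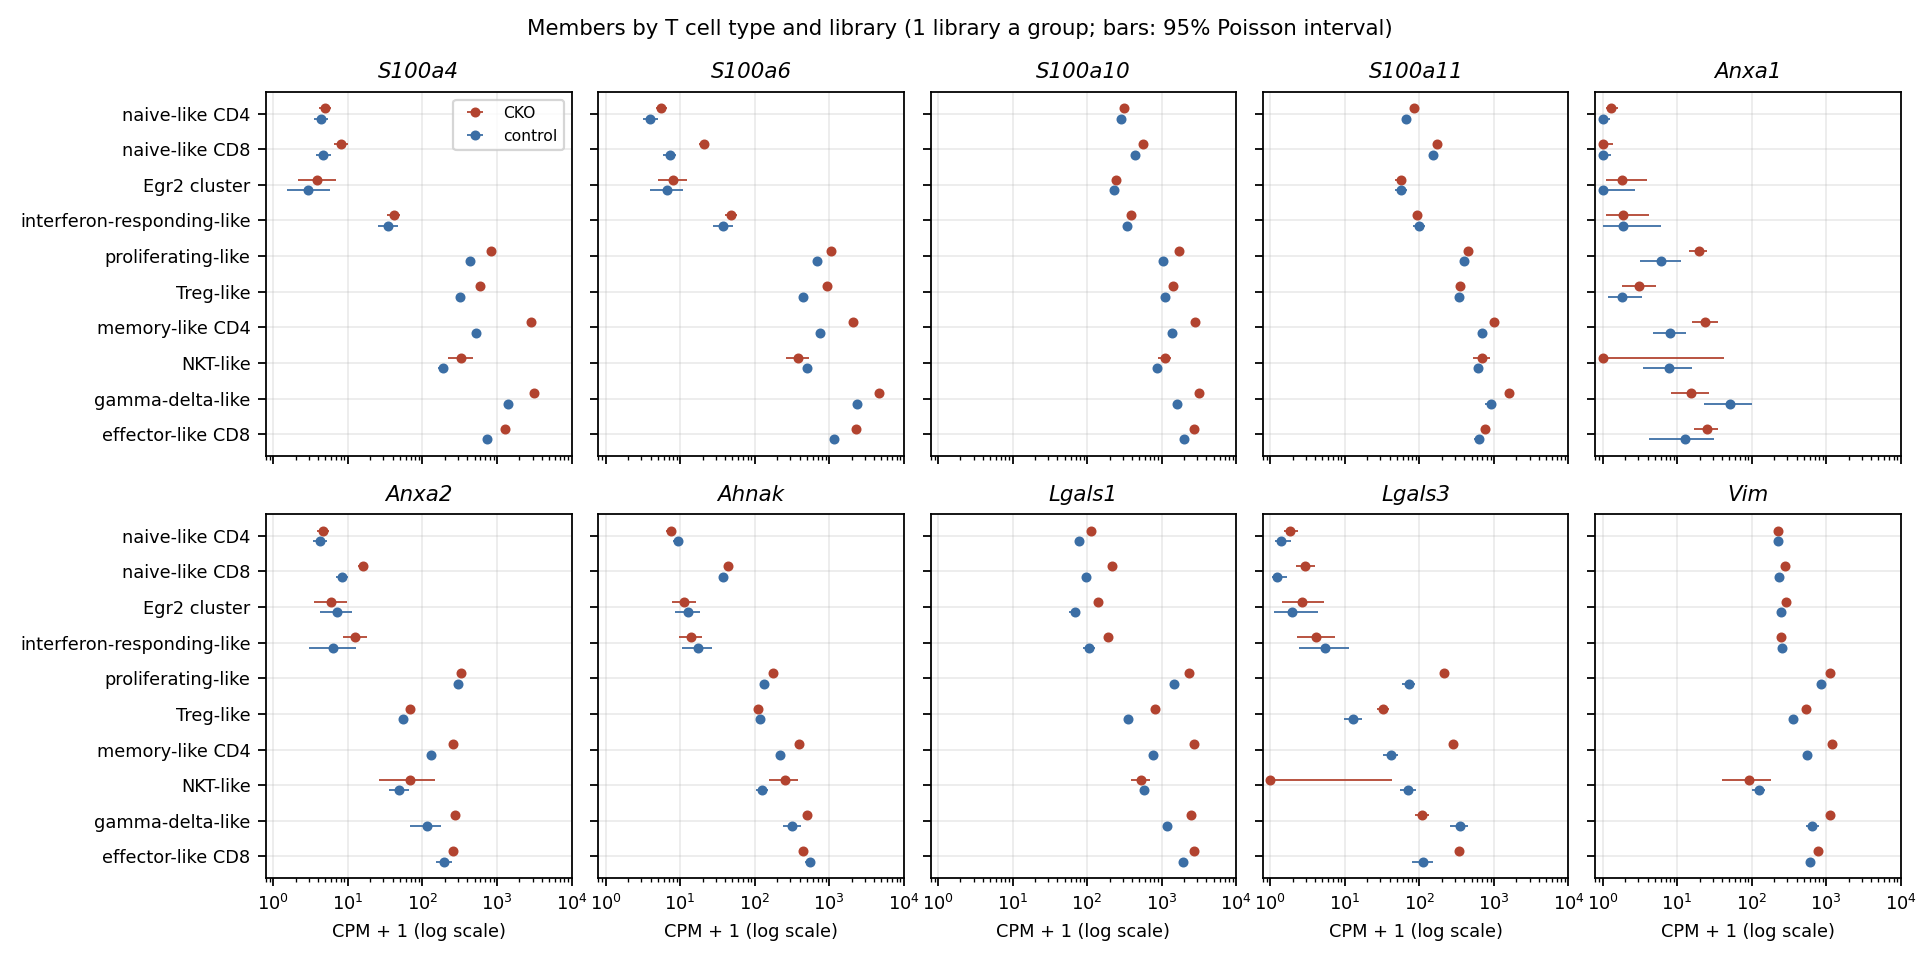
Level of each member as CPM + 1 on a log scale, by T cell type and library, with exact 95% Poisson intervals as bars. S100a4, S100a6 and Lgals3 stand at 19.7 CPM or less in the naive-like types, whereas Vim and S100a10 stay above 200 CPM there.

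Across the types the members varied together. Over 21 profiles, each a named type in 1 library with at least 30 cells, Pearson's r between S100a4 and S100a6 on log2(CPM + 10) was 0.984, and the pair of S100a11 and Vim had the lowest r of the 45 pairs, 0.705. Lgals1 was the member closest to the mean of the other members, with r = 0.980, and Vim the farthest, with r = 0.821. Outside the members, Cd48, a surface receptor of the SLAM family, had the profile closest to their mean (r = 0.968), followed by Ehbp1l1 (0.959), Ormdl2 (0.958) and Prr13 (0.956). These values describe profiles that share libraries and depths, and they say nothing of shared control.

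Over all T cells, 6 of the 10 members were at least 1.5-fold higher in the CKO library and 0 at least 1.5-fold lower, where 4.95% and 2.12% of all genes with at least 50 UMIs passed the same limits. The rule had used this contrast, so the count is a description. Lgals3 stood at 35.9 and 11.3 CPM, S100a4 at 242 and 90.7 CPM, S100a6 at 319 and 142 CPM, and Lgals1 at 482 and 235 CPM. Vim, at 356 and 281 CPM, S100a11, at 220 and 191 CPM, and Ahnak, at 70.2 and 61.7 CPM, differed by under 1.5-fold, as did S100a10, at 708 and 535 CPM. Anxa2, at 59.4 and 39.6 CPM, passed 1.5-fold only narrowly, with a log2 ratio of 0.586. Levels over all T cells mix the levels within types with the makeup of the cells. With all types at equal weights the log2 ratio of Anxa2 was 0.35, and the median of the 10 members 0.61 in place of 0.81. Anxa1, whose product is a known modulator of inflammation, was nearly absent, at 2.82 and 1.13 CPM.

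The CD8 class, made up of naive-like, memory-like and effector-like CD8 clusters, held 1554 CKO and 1976 control cells. Effector-like cells, defined by Gzma, made up 9.27% [7.87 to 10.8] of the class in the CKO library and 2.18% [1.58 to 2.92] in the control library, 144 and 43 cells. Memory-like cells made up 14 and 211 cells. The makeup of the class therefore differed between the libraries, and a level of the class mixes this makeup with the level within each type.

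In the CD8 class S100a4 stood at 133 and 20.5 CPM, a log2 ratio of 2.70 [2.53 to 2.88]. S100a6 stood at 247 and 36.5 CPM (2.76 [2.63 to 2.89]) and Lgals3 at 35.7 and 2.92 CPM (3.61 [3.17 to 4.09]). Lgals1, the galectin that T cells secrete, stood at 464 and 144 CPM (1.69 [1.62 to 1.76]). Anxa2 had 39.2 and 12.8 CPM (1.62) and S100a10 778 and 465 CPM (0.74). S100a11 (0.52), Ahnak (0.50) and Vim (0.44) were the 3 lowest, and Anxa1, with 28 and 4 UMIs, did not reach 50 UMIs. Of the 9 members that did, 6 were at least 1.5-fold higher, against a background of 6.36% of genes, and 0 were at least 1.5-fold lower, against 1.76%.

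Much of this lay in the effector-like cells. They held 10.0% of all UMIs of the CKO CD8 class and 2.22% of those of the control class. Of the S100a4 UMIs of the class they held 95.1% and 80.1%, of the Lgals3 UMIs 94.96% and 84.4%, and of the S100a6 UMIs 92.5% and 71.4%. The shares were lower for Anxa2, at 66.2% and 33.5%, Lgals1, at 58.1% and 30.1%, and Ahnak, at 53.2% and 20.5%. They were lowest for S100a10, at 35.5% and 9.56%, S100a11, at 32.9% and 8.58%, and Vim, at 23.3% and 5.54%. Over the 10 members together the effector-like cells held 49.5% and 15.4% of the UMIs, or 31.5% and 8.89% with types from gates on single cells.

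When naive-like, memory-like and effector-like cells were given the same weights in both libraries, the log2 ratios of S100a4 and S100a6 went from 2.70 to 0.80 and from 2.76 to 1.04. That of Lgals3 went from 3.61 to 1.70, that of Lgals1 from 1.69 to 0.80, and that of Anxa2 from 1.62 to 0.62. Those of S100a10 (0.41), S100a11 (0.24) and Vim (0.26) moved less, and Ahnak came to -0.02. The 9 members with at least 50 UMIs thus kept a positive ratio at equal makeup, with the exception of Ahnak, but the values of S100a4, S100a6 and Lgals3 were smaller by more than 1.5 on the log2 scale.

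**Figure D2:**
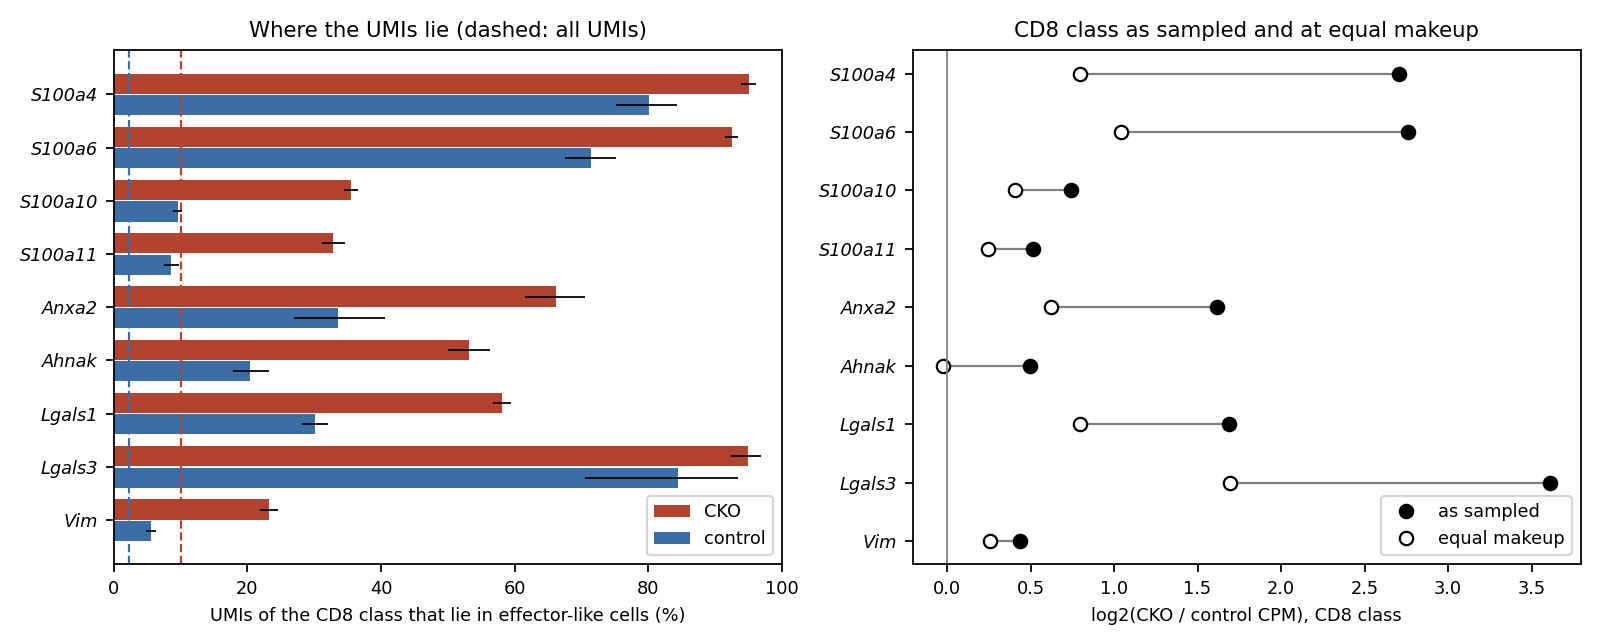
Left, percent of each member's UMIs in the CD8 class that lie in effector-like cells, by library, with dashed lines at the share of all UMIs (10.0% and 2.22%). Right, log2 ratio of CKO to control in the class as sampled and with types at equal weights; S100a4 moves from 2.70 to 0.80 and Ahnak from 0.50 to -0.02.

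Within effector-like CD8 cells the members differed from each other. Lgals3 had a log2 ratio of 1.61 [1.13 to 2.13], S100a6 of 0.96 [0.81 to 1.12] and S100a4 of 0.78 [0.59 to 0.98], and these 3 of 9 passed 1.5-fold, against a background of 6.75%, with 0 as far lower, against 8.11%. Lgals1, at 2692 and 1947 CPM, had 0.47 [0.35 to 0.59], S100a10 0.46 [0.34 to 0.58] and Anxa2, at 259 and 192 CPM, 0.43 [0.04 to 0.84]. Vim (0.33) and S100a11 (0.28) were lower still. Ahnak stood at 448 and 551 CPM, a log2 ratio of -0.30 [-0.54 to -0.05], the one member that was lower in the CKO cells. This direction turned when effector-like cells were gated on UMIs in single cells (0.69 [0.38 to 1.004]) and in cells with Y-linked UMIs (0.33). Anxa1 had 28 and 4 UMIs there, which were all its UMIs in the CD8 class.

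The effector-like cells of the libraries were not alike in other markers. A UMI of Trdc, the constant segment of the gamma-delta receptor, was found in 43.1% of the 144 CKO cells and in 0% of the 43 control cells, where 0 of 43 still allows a share of up to 6.98%. The share in naive-like CD8 cells was 8.67% and 3.54%. Among the cells with a Cd8b1 UMI and no Trdc UMI, 69 and 33 in number, S100a4 stood at 1053 and 672 CPM (0.65 [0.41 to 0.90]), S100a6 had a log2 ratio of 0.84 and Lgals3, at 276 and 122 CPM, of 1.18. In the same cells S100a11 stood at 714 and 708 CPM and Vim at 532 and 560 CPM. In the control library 3 cells held 42.3% of the S100a4 UMIs and 55.3% of the Lgals3 UMIs of the 43 effector-like cells, so those control levels rest on few cells. The 4 neutrophil markers and the 3 plasma cell markers were at 0 in effector-like cells of both libraries, and the 5 NK markers summed to 284 and 213 CPM with Ncr1 at 0. The 6 myeloid markers summed to 202 and 140 CPM with Lyz2 and Csf1r at 0, the 2 erythroid markers to 14.5 and 0 CPM and the 4 dendritic markers to 5.13 and 0 CPM. Over all T cells erythroid markers summed to 8.20 and 1.135 CPM and platelet markers to 1.97 and 0.51 CPM, and the part of any of these in the members' levels was not tested.

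Naive-like CD8 cells, 1396 and 1722 in number, were counted without the effector-like cluster. Cells at the edge between both clusters and free RNA can add to their levels, which was not tested. Lgals1 stood at 217 and 94.8 CPM there, a log2 ratio of 1.19 [1.09 to 1.29]. It was spread over many cells, since 47.5% and 29.2% had a UMI. With every cell thinned to 2000 UMIs these shares were 26.3% [24.0 to 28.7] and 13.02% [11.5 to 14.7]. In B-like cells the thinned shares were 6.94% [2.29 to 15.5] and 15.4% [7.63 to 26.5], with median depths of 5633 and 4495 UMIs against 6911 and 7054 in naive-like CD8 cells. The B-like cells are few, 72 and 67 before thinning, and 3 of them held 66.7% of the Lgals1 UMIs of the control B-like cells. Their shares are therefore given as values only.

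S100a6, at 19.7 and 6.20 CPM from 205 and 80 UMIs (1.67 [1.29 to 2.06]), and Anxa2, at 14.7 and 7.28 CPM (1.02 [0.64 to 1.40]), were also higher in CKO naive-like CD8 cells. S100a4 had only 74 and 47 UMIs (0.97 [0.42 to 1.53]), of which 18 were in 1 CKO cell. Of the members with at least 50 UMIs, 4 of 8 passed 1.5-fold, against 5.1% of all genes, and 0 were as far lower, against 2.17%. S100a10 (0.34), Vim (0.29), Ahnak (0.23) and S100a11 (0.18) were nearer to level, and Anxa1 had 0 UMIs in both libraries. At a coarser clustering (Leiden resolution 0.5) Lgals1 was the 1 member past 1.5-fold (0.91), with S100a6 at 0.54, Anxa2 at 0.44 and S100a4 at 0.48, and over all alternatives the log2 ratio of Lgals1 lay between 0.91 and 1.40 and that of S100a4 between 0.0036 and 1.54.

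**Figure D3:**
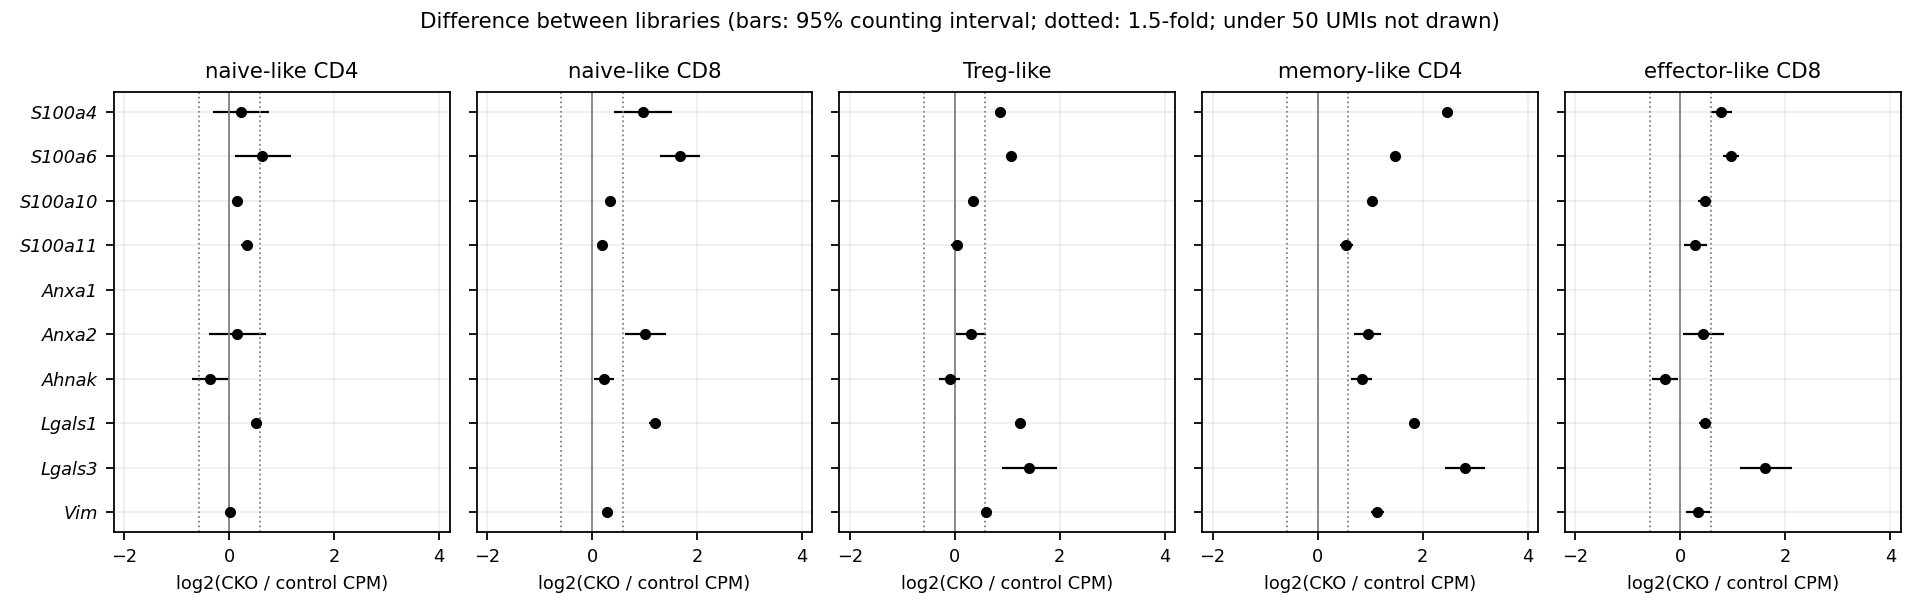
Log2 ratio of CKO to control for each member in 5 types, with exact 95% intervals and dotted lines at 1.5-fold; values from under 50 UMIs are not drawn. Lgals1 lies above 0 in all 5 types, whereas Ahnak lies at -0.30 in effector-like CD8 cells and at 0.84 in memory-like CD4 cells, 2 values that turn to 0.69 and -0.077 with types from gates on single cells.

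In naive-like CD4 cells, 3650 and 2548 in number, 1 of 8 members passed 1.5-fold, against 4.19% of genes, and 0 were as far lower, against 1.98%. That member was S100a6, at 4.60 and 2.97 CPM from 97 and 44 UMIs (0.63 [0.10 to 1.18]). Lgals1 stood at 111 and 77.4 CPM (0.52 [0.41 to 0.62]), S100a11 at 82.6 and 65.5 CPM (0.34) and Vim at 225 and 223 CPM (0.01 [-0.05 to 0.08]). S100a10 stood at 316 and 286 CPM (0.14), S100a4 at 3.93 and 3.38 CPM (0.22), Anxa2 at 3.60 and 3.24 CPM (0.15) and Ahnak at 6.59 and 8.44 CPM (-0.36 [-0.72 to 0.0023]). Lgals3 had 18 and 6 UMIs and Anxa1 6 and 0. The type consists of 3 clusters, of which the cluster led by Pdlim4 and Igfbp4 held 1810 CKO and 181 control cells, or 49.6% and 7.104% of the type. That cluster held 69.8% and 12.7% of the Lgals1 UMIs. With the 3 clusters at equal weights Lgals1 stood at 97.4 and 90.9 CPM, a log2 ratio of 0.10, so its difference in naive-like CD4 cells moved with the cluster makeup. By cluster it was higher in 1 of 3 (0.28) and lower in 1 (-0.24) with intervals off 0. Vim was lower with intervals off 0 in 2 of 3, and at equal weights stood at -0.19. With types from gates the log2 ratio of S100a6 was -0.35.

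The share of cells in which several members were detected was compared in all types. After thinning, at least 3 of the 10 members had a UMI in 21.1% [18.9 to 23.3] of CKO and 11.9% [10.4 to 13.5] of control naive-like CD8 cells, a ratio of 1.77 [1.47 to 2.12], and without thinning in 66.4% and 56.7%. In naive-like CD4 cells the thinned shares were 6.85% and 3.94%, and without the Pdlim4 cluster their ratio was 1.25 [0.91 to 1.71] in place of 1.74 [1.37 to 2.21]. In Treg-like cells they were 41.3% and 34.4%, in memory-like CD4 cells 93.5% and 61.4%, and in effector-like CD8 cells 97.2% and 86.0%. It was about level in gamma-delta-like cells, at 98.99% and 100%, in the clusters of mixed identity, at 29.6% in both libraries, and in B-like cells, at 18.1% and 20%.

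**Figure D4:**
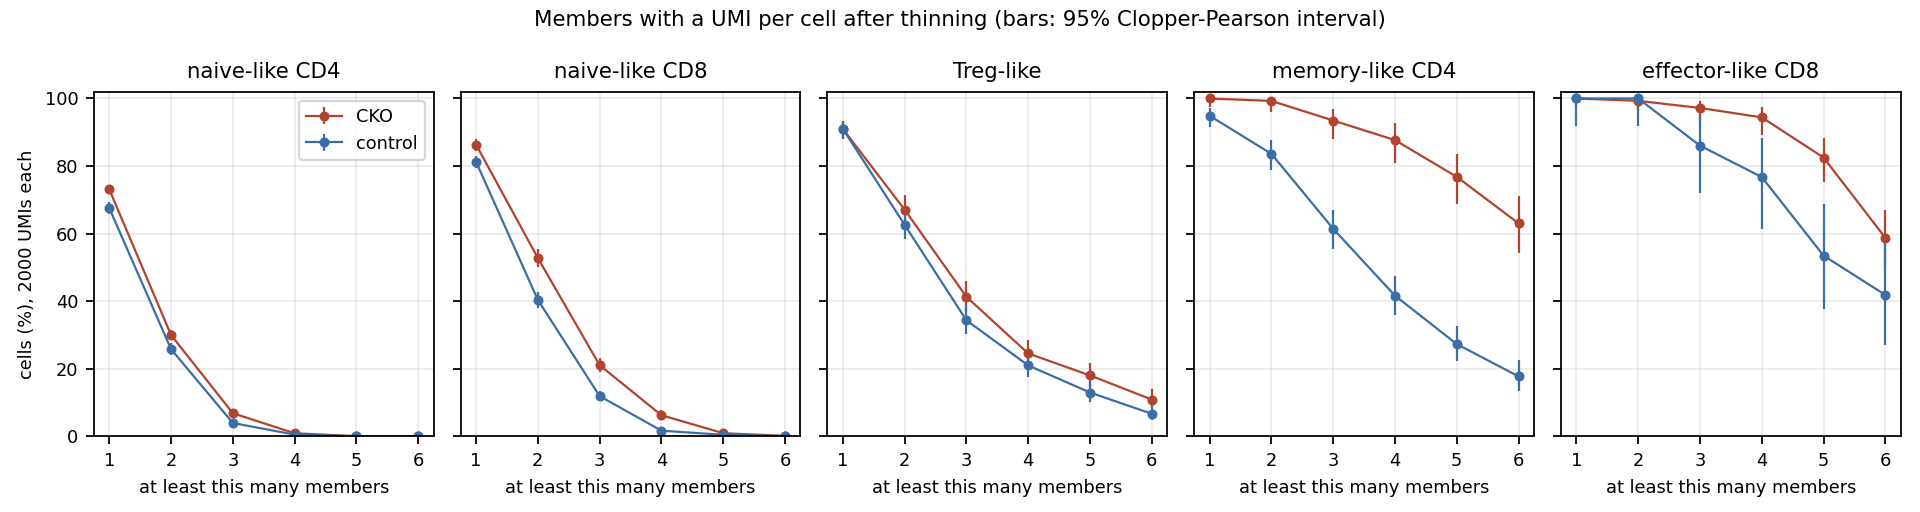
Percent of cells with a UMI of at least 1 to 6 members after thinning to 2000 UMIs per cell, in 5 types, with exact 95% binomial intervals. At 3 members the CKO curve of naive-like CD8 cells is at 21.1% and the control curve at 11.9%.

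Treg-like cells, marked by Foxp3, numbered 481 and 532. Lgals1 stood at 826 and 348 CPM (1.25 [1.15 to 1.34]), S100a6 at 918 and 439 CPM (1.07 [0.98 to 1.15]) and S100a4 at 583 and 319 CPM (0.87 [0.76 to 0.97]). Lgals3, at 31.7 and 11.96 CPM, had a log2 ratio of 1.41, Vim, at 533 and 352 CPM, of 0.60, and S100a10, at 1402 and 1103 CPM, of 0.35. Anxa2, from 231 and 204 UMIs, had a log2 ratio of 0.31. S100a11 (0.04) and Ahnak (-0.10) were close to level, and Anxa1 had 7 and 3 UMIs. Of 9 members with at least 50 UMIs 5 passed 1.5-fold, against 3.94% of genes, and 0 were as far lower, against 4.42%.

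The Treg-like cells divided into 9 sub-clusters. Lgals1 was higher in the CKO library in 9 of 9, with intervals off 0 and log2 ratios from 0.51 to 1.87. Vim was so in 5 of 9, S100a6 in 5 of the 5 with at least 50 UMIs and S100a4 in 4 of 5. One sub-cluster led by Klrg1, Il1rl1 and Ccr4, with 41 and 48 cells or 8.52% and 9.02% of the type, held 63.5% and 48.7% of the S100a4 UMIs and 66.5% and 49.4% of the S100a6 UMIs. It stood at 3528 and 1521 CPM for S100a4 (1.21), 5828 and 2118 CPM for S100a6 (1.46) and 3281 and 1203 CPM for Lgals1 (1.45). Another sub-cluster, with 86 and 104 cells, had only 12 and 6 UMIs of S100a4 but 302 and 139 CPM of Lgals1. The Klrg1 sub-cluster also held 41.6% and 35.3% of the Lgals1 UMIs, a smaller part than of S100a4 and S100a6 in the same library. The sub-clusters at equal weights gave 1.10 for S100a4, 1.25 for S100a6 and 1.22 for Lgals1.

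Memory-like CD4 cells, marked by Cd44, numbered 138 and 294, or 3.64% and 10.3% of the CD4 class. Over both libraries a UMI of Trdc was found in 31.25% of the cells of its sub-cluster with Il22 and 22.0% of that with Ifng. The share was 2.31% in the sub-cluster led by Maf and Tox2 and 3.60% in that led by Gpm6b. The first held 51 and 13 cells and the second 70 and 57, so the type may mix kinds of cells, which was not tested. The levels that follow are of the whole type. S100a4 stood at 2853 and 515 CPM (2.47 [2.36 to 2.58]), Lgals1 at 2730 and 760 CPM (1.84 [1.75 to 1.94]) and Lgals3 at 282 and 40.4 CPM (2.80 [2.43 to 3.19]). S100a6, at 2087 and 747 CPM (1.48), Vim, at 1207 and 547 CPM (1.14), and S100a10, at 2828 and 1378 CPM (1.04), followed. Anxa2 (0.95) and Ahnak (0.84) passed 1.5-fold too and S100a11 (0.55) did not, while Anxa1 had 25 and 13 UMIs. Anxa2 and Ahnak came to -0.038 and -0.077 with types from gates. As clustered, 8 of 9 passed, against 7.87% of genes, and 0 were as far lower, against 9.2%. In the CD4 class as a whole, which joins these cells with the naive-like CD4 cells, 3 of 9 passed, against 3.57%, and 0 were as far lower, against 2.49%. These were S100a4 at 144 and 59.7 CPM, Lgals3 at 14.7 and 4.81 CPM and Lgals1 at 239 and 153 CPM, while Ahnak stood at 25.4 and 31.4 CPM (-0.31 [-0.48 to -0.13]). The CKO class held a smaller share of memory-like cells, and with both types at equal weights the log2 ratios were larger, at 2.38 in place of 1.27 for S100a4, 1.45 in place of 0.33 for S100a6, 2.69 in place of 1.61 for Lgals3 and 1.26 in place of 0.65 for Lgals1. Anxa2 turned from -0.12 to 0.80, Ahnak from -0.31 to 0.55 and S100a11 from -0.065 to 0.44. The median of the 10 members, with Anxa1 included although it had under 50 UMIs, went from 0.22 to 1.03. Equal weights of the types thus raised the ratios in the CD4 class and lowered them in the CD8 class. In the CD4 class values the sub-clusters within memory-like cells kept the makeup of each library, so a difference in makeup remains in them.

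The ratios of memory-like CD4 cells, and with them the class ratios at equal weights of types, also moved with the makeup of that type. The sub-cluster with Il22, Ccr6 and Tmem176a held 51 CKO and 13 control cells, and the sub-cluster led by Maf and Tox2 8 and 122. In the first, S100a4 stood at 4003 and 2899 CPM (0.47), while Vim was lower in the CKO cells, at 1536 and 1904 CPM. In the sub-cluster with Ifng, Cxcr3 and Cxcr6, with 70 and 57 cells, S100a4 stood at 2260 and 886 CPM (1.35), Lgals1 at 2899 and 1478 CPM (0.97) and S100a6 at 2017 and 1687 CPM (0.26). Over the 4 sub-clusters the log2 ratio of S100a4 ran from -0.47 to 3.03, with intervals above 0 in 3 and below 0 in 0. With the 4 sub-clusters at equal weights the log2 ratio of S100a4 was 1.02 in place of 2.47, of Lgals1 0.68 in place of 1.84, of Lgals3 0.63 in place of 2.80 and of Vim 0.07 in place of 1.14. The sub-clusters led by Maf and Tox2 and by Gpm6b had only 8 and 9 CKO cells, so these values rest partly on few cells.

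**Figure D5:**
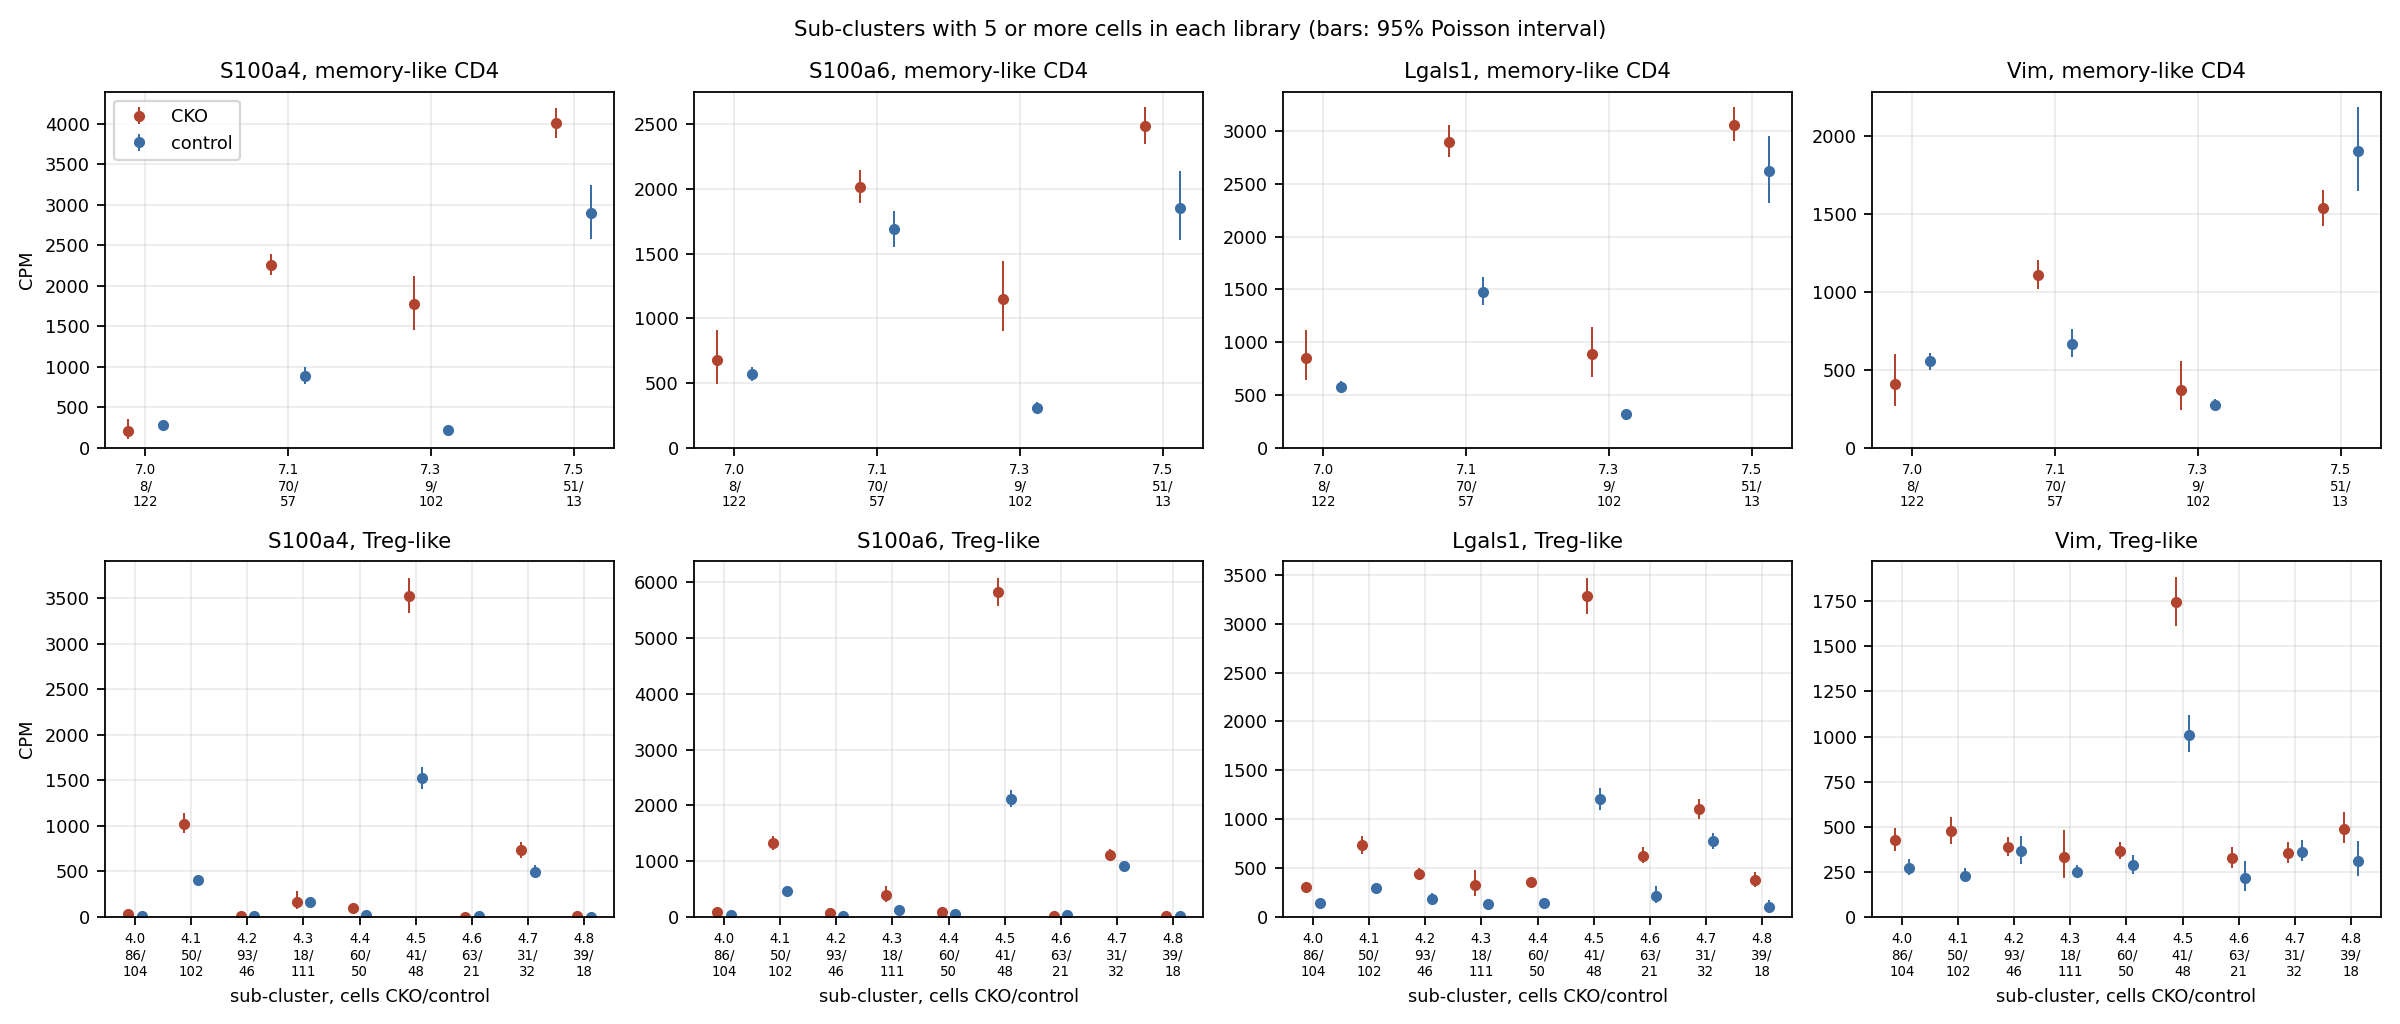
Level of S100a4, S100a6, Lgals1 and Vim as CPM in sub-clusters of memory-like CD4 and Treg-like cells with at least 5 cells in each library, with exact 95% intervals. Lgals1 is higher in the CKO library in all 9 Treg-like sub-clusters, and S100a4 reaches 3528 and 1521 CPM in the Klrg1 sub-cluster, number 4.5.

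Among the other types, the Lgals1 level of the cluster with Egr2 was 140 and 67.0 CPM (1.06 [0.77 to 1.35]), with 1 of 5 members past 1.5-fold against 4.35% of genes and 0 as far lower against 2.2%. In interferon-responding-like cells it was 188 and 107 CPM (0.82 [0.52 to 1.12]), with 1 of 6 against 6.02% and 0 lower against 3.17%. In proliferating-like cells, 146 and 73 in number, 6 of 10 members passed against 5.87%, with 0 lower against 3.6%, among them Lgals3 (1.59), S100a4 (0.94) and Anxa1, with 46 and 8 UMIs (1.84 [0.74 to 3.13]), the one type in which Anxa1 reached 50 UMIs. In the cluster led by Fcer1g, with 197 and 115 cells, 0 of 9 passed against 5.46%, 0 were as far lower against 2.79%, and Vim stood at 417 and 507 CPM (-0.28 [-0.45 to -0.11]).

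Gamma-delta-like cells, 100 and 17 in number, had the highest S100a4 and S100a6 levels in both libraries when each T cell type was taken whole. The Klrg1 sub-cluster of Treg-like cells and the Il22 sub-cluster of memory-like CD4 cells, given above, had higher S100a4 levels in both libraries. The Klrg1 sub-cluster also had a higher S100a6 level in the CKO library. In gamma-delta-like cells S100a4 stood at 3175 and 1407 CPM (1.17 [0.98 to 1.38]) and S100a6 at 4631 and 2321 CPM (0.997 [0.84 to 1.16]). Lgals3 went the other way, at 108 and 344 CPM from 83 and 55 UMIs (-1.67 [-2.18 to -1.15]), but 3 of the 17 control cells held 74.5% of its UMIs and 1 cell 32.7%. S100a10, S100a11, Anxa2, Ahnak, Lgals1 and Vim had log2 ratios between 0.64 and 1.28, and Anxa1 had 11 and 8 UMIs. There 8 of 9 members were at least 1.5-fold higher, against 16.4% of genes, and 1 was lower, against 7.96%. In NKT-like cells, 11 and 107 in number, Lgals3 had 0 UMIs in the CKO library, where the exact interval reaches 41.9 CPM, and 62 UMIs or 70.3 CPM [53.9 to 90.1] in the control library, where 12 of 107 cells had a UMI and 3 cells held 71.0% of them. In that type 2 of 8 members were higher, against 13.9%, and 1, Lgals3, was lower, against 15.7%. With 11 CKO cells and so few positive control cells, these counts do not show a lower level of Lgals3 per cell. Memory-like CD8 cells, 14 and 211 in number, had 3 of 6 members past 1.5-fold, against 13.5%, and 0 as far lower, against 19.7%. The clusters of mixed identity had 2 of 9, Lgals3 at 35.1 and 5.44 CPM and S100a4 at 159 and 99.7 CPM, against 4.28%, and 0 as far lower, against 2.94%. In B-like cells, which the sort carried over, 0 of 4 members were higher, against 4.16%, and 2 of 4, S100a10 (-0.65) and Lgals1 (-1.32), were lower, against 8.86%, with 47 of the 228 S100a10 UMIs and 27 of the 66 Lgals1 UMIs of the control library in 1 cell each.

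Counted over the 13 T cell types, clusters of mixed identity included, Lgals1 was at least 1.5-fold higher with an interval off 0 in 7 of the 13 types in which it had 50 UMIs. Its interval lay above 0 in 11 of the 13 and below 0 in 0. S100a4 was at least 1.5-fold higher with an interval off 0 in 8 of 11 types, S100a6 in 8 of 12, S100a10 in 4 of 13 and S100a11 in 2 of 13. Anxa2 was so in 3 of 9, Ahnak in 3 of 12 and Vim in 3 of 13. Intervals above 0 at any ratio were found in 8 types for S100a4, 9 for S100a6, 11 for S100a10 and 7 for S100a11. They were found in 5 for Anxa2, 5 for Ahnak and 7 for Vim, with 1 below 0 for Ahnak and 1 for Vim. All types come from the same CKO and control library, so these counts are not independent. Lgals3 was at least 1.5-fold higher in 5 of 8 types and as far lower in 2, the gamma-delta-like and the NKT-like cells, where few control cells held most of its UMIs. Among members with at least 50 UMIs in a type, Lgals3 was the one gene that was at least 1.5-fold lower in any of these types.

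Both libraries contain cells of both sexes, judged from Y-linked and Xist UMIs, and the CD8 class ratios were alike in direction in either set. In cells with Y-linked UMIs only, the log2 ratio in the CD8 class was 2.92 for S100a4, 3.06 for S100a6 and 2.17 for Lgals1. In cells with Xist UMIs only it was 2.70, 2.43 and 1.502. The Lgals1 ratio of naive-like CD8 cells was 1.40 and 1.12, and that of Treg-like cells 0.97 and 1.37.

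Relatives of the members were counted by the same rule, first in the CD8 class. The members had been chosen for being higher in the knockout, so smaller ratios of relatives do not set the members apart. Of 12 other S100 genes 2 had at least 50 UMIs and 0 passed 1.5-fold, with a median log2 ratio of 0.38. Of 10 other annexins 4 were measured and of 9 other galectins 3, with 0 past 1.5-fold in either list and medians of 0.22 and 0.15, against 0.10 over all genes. Of the cytoskeleton and membrane partners 2 of 21 were higher and 0 lower, with a median of 0.14. In naive-like CD8 cells 2 of 21 partners were higher, Lmna, which encodes lamin A, at 7.12 and 2.94 CPM (1.28), and Capg, an actin-capping protein, at 14.7 and 9.06 CPM (0.70), and the median was 0.07, as over all genes. Of receptors and surface partners 1 of 5 was higher in the CD8 class and of regulators of the naive or effector state 2 of 13, with medians of 0.31 and 0.07, and the regulators were Zeb2 (1.58) and Prdm1 (0.97). The class ratios of regulators mix cell makeup with levels within types. Within effector-like CD8 cells 0 of 11 regulators were higher, against 6.75% of genes, and 2 lower, against 8.11%, with a median of -0.46. Within naive-like CD8 cells 0 of 11 were higher, against 5.1%, and 0 lower, against 2.17%, with a median of -0.011. In memory-like CD4 cells 7 of 20 partners were higher and 1, Actn1, lower (-2.04), with a median of 0.21. Of 12 regulators 3 were higher and 2 lower, with a median of -0.15, and the 4 with the largest ratios were Id2 (1.42), Zeb2 (1.17) and Tbx21 (0.95), known in effector cells, and Foxo1 (-1.002), known in naive cells. The other lower regulator was Tcf7 (-0.91), named after its value was seen. Some relatives moved in memory-like CD4 cells, where 1 of 1 other S100 genes passed (S100a13, 0.92), 1 of 4 annexins (Anxa5, 0.64), 1 of 3 galectins (Lgals3bp, 1.34, with a list median of -0.31) and 1 of 4 receptors (Cd7, 1.66). In gamma-delta-like cells 2 of 3 other annexins passed.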

How the data were processed

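Splenic CD3+ cells of 1 CKO and 1 control library were analysed. The deposited values are counts, whole numbers of UMIs per gene and barcode without normalization. The authors' tools, per the submitters' processing notes, include Cell Ranger 3.1.0, CASAVA 1.8 and Seurat 2.3.4 with mm10, with no role given for each. The members and all gene lists were chosen with earlier results of these data known.

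Barcodes were kept from 500 genes upward if mitochondrial UMIs stayed below 10%. Scrublet called 0 doublets, so doublets remain. Scanpy 1.11.5 clustered both libraries together on 2000 variable genes without the members, their families, receptor, mitochondrial and ribosomal genes, with 30 principal components, 15 neighbours and Leiden resolution 1 (seed 1). Clusters with Il2rb in at least 45% of cells were divided further with 15 components at resolution 0.8. Types were named from marker genes by percent of cells with a UMI, with limits set after the clusters had been seen: Cd79a 50% for B-like, Tyrobp 50% with Cd3e under 60% for myeloid-like, Mki67 50% for proliferating-like, Foxp3 40% for Treg-like, Ifit3 50% for interferon-responding-like, Trdc 60% with Cd163l1 30% for gamma-delta-like, Zbtb16 30% for NKT-like. CD8 clusters had Cd8b1 in 60% and Cd4 under 20% (effector-like: Gzma 40%; memory-like: Ly6c2 70% and Il2rb 45%), CD4 clusters Cd4 in 30% and Cd8b1 under 25% (memory-like: Cd44 25%).

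UMIs were summed per type and library and divided by all UMIs of that sum. With 1 library per group no test was possible and no p-value was computed. Intervals are exact Poisson, conditional binomial or Clopper-Pearson at 95% (scipy 1.17.1). A member was counted when it had at least 50 UMIs over both libraries and a 1.5-fold ratio, and the same rule over all genes gave the background. A count of 0 was given a limit of 3 counts for shares. Thinning to 2000 UMIs used 1 draw (seed 11). The rule names all 10 members in every class. In the smaller types the text names some and counts the others. From each list it names at most 4 genes with the largest ratios and intervals off 0. The functions were tested on simulated data. The promoters came from RefSeq. Alternatives were other cell filters, doublet scores, resolutions, clustering with the members, gates in single cells, cells of either sex marker, scalings, minimums and folds. Leaving out the Pdlim4 cluster and restricting effector-like cells to Cd8b1 without Trdc were chosen after seeing the data.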

Additional observations from a re-analysis of the deposited data

Results flagged for a closer look

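Several members had ratios of opposite direction in different types, with counting intervals off 0. None of these differences between types was tested, since each group is 1 library. Lgals3 had a log2 ratio of CKO to control of -1.67 in gamma-delta-like cells and 2.80 in memory-like CD4 cells. In NKT-like cells, where it had 0 CKO UMIs, the upper bound of its log2 ratio was -0.70, against the same 2.80. That bound covers UMIs and not cells: 12 of 107 control cells had a UMI and 3 held 71.0% of them, so that it does not show a lower level among 11 CKO cells. In gamma-delta-like cells 3 of 17 control cells held 74.5% of the Lgals3 UMIs. Lgals1 had -1.32 in B-like cells, from 35 and 66 UMIs, and 1.84 in memory-like CD4 cells. In the control B-like cells 3 cells held 66.7% of the Lgals1 UMIs.

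Vim had -0.91 in myeloid-like cells and 1.14 in memory-like CD4 cells. Ahnak had -1.23 in myeloid-like cells and 1.01 in NKT-like cells. Of the 47 Ahnak UMIs of the control myeloid-like cells 30 were in 1 cell, against 19 UMIs in all CKO myeloid-like cells, so that most of that control level rests on 1 cell. S100a10 had -0.65 in B-like cells and 1.19 in myeloid-like cells, with 47 of 228 control B-like UMIs in 1 cell. The myeloid-like type holds 23 and 26 cells, the NKT-like type 11 and 107.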

How the results depend on the processing

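No paired analysis was possible because each group has 1 library. Over 643 values of members in 6 classes under the alternatives, 618 kept the direction of the reported value, 451 lay within its interval and 189 moved out of it. Under gates on single cells 4 of 52 lay within it and 45 moved, and in cells with Y-linked UMIs 33 of 47 moved. Of the values reported as past 1.5-fold, 3 changed sign, all under gates on single cells: S100a6 in naive-like CD4 cells (-0.35), Anxa2 (-0.038) and Ahnak (-0.077) in memory-like CD4 cells. The number of members past 1.5-fold in naive-like CD4 cells, 1 as reported, was 2 without the highest doublet scores or at resolution 2, 3 with no UMI minimum, and 0 at resolution 0.5, under gates, in cells with Y-linked UMIs, as a mean over cells, after centring or at a fold of 2. The number in naive-like CD8 cells went from 4 to 1 at resolution 0.5, and that in Treg-like cells from 5 to 3 at a fold of 2. The cause was not tested.

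The effector-like share of member UMIs in the CD8 class, 49.5% and 15.4% as reported, was 52.1% and 26.7% with the stricter cell filter, 46.2% and 13.8% at resolution 0.5, 31.5% and 8.89% under gates, and 46.4% and 8.43% in cells with Y-linked UMIs. The CKO share was 51.5% at resolution 2 and 45.7% in cells with Xist UMIs. Among effector-like cells with Cd8b1 and no Trdc the shares were 29.4% and 12.5%. The median log2 ratio at equal makeup in the CD8 class was 0.71 in the main setting and between 0.59 and 0.94 under the alternatives. The 0.71 is over all members, with Anxa1 included although it had under 50 UMIs. The log2 ratio of Ahnak in effector-like cells, -0.30 as reported, was 0.69 under gates and 0.33 in cells with Y-linked UMIs, and that of Lgals1 in naive-like CD4 cells, 0.52 as reported, was -0.0027 without the Pdlim4 cluster.

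The ratio of cells with at least 3 members in naive-like CD4 cells, 1.74 as reported, was 1.23 under gates, 2.48 in cells with Y-linked UMIs, 1.23 without thinning, 1.16 for 2 or more members and 1.25 without the Pdlim4 cluster. In naive-like CD8 cells, 1.77 as reported, it was 1.39 under gates, 1.17 without thinning and 1.31 for 2 or more members.

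Depth limits Anxa1 in every type but the proliferating-like cells, and S100a4, S100a6 and Lgals3 in naive-like cells. The intervals cover counting error only, and the spread between mice is not known.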
